A study of Homo sapiens with 12 samples.

Results

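The MYC and MAX network is a group of transcription factors that share a basic helix-loop-helix leucine zipper. It was taken as the rows of the count table whose Ensembl identifier maps to MYC, MYCN, MYCL, MAX, MXD1, MXD3, MXD4, MXI1, MNT or MGA. All 10 genes were found among 57783 rows, and all 10 passed the filter on low counts with 16327 genes in total. MYC, MYCN and MYCL bind DNA as a pair with MAX and activate genes of growth, biosynthesis and division. The MXD proteins, MXI1 and MNT compete for MAX, recruit the SIN3 corepressor and repress; MGA also pairs with MAX and works within a Polycomb complex called PRC1.6. MYC activity is often high in triple-negative breast cancer, and DOT1L is best known for supporting HOX gene transcription in leukemias with MLL rearrangements.

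RNA was sequenced from MDA-MB-468, an established human line of triple-negative breast cancer. Cultures were exposed for 10 days to DMSO, the solvent, or to 0.5 µM EPZ5676 (pinometostat), an inhibitor of the histone H3 methyltransferase DOT1L, and were sorted by ALDH1 status afterwards. Each treatment gave an ALDH1+ and an ALDH1- group, so there were 4 groups, with 3 libraries each that the labels call biological replicates. All groups come from 1 cell line at 1 dose and 1 time, and the drug was given before the sort, so each sorted population was selected from an already treated or untreated culture. Totals ran from 24348594 to 80195050 counts, with the deepest libraries being DMSO ALDH1+ replicate 3 (58004508) and EPZ5676 ALDH1+ replicate 2. The epithelial markers EPCAM and KRT8 and the receptor EGFR were abundant in all groups (EPCAM 555 to 703 CPM, KRT8 2772 to 3358 CPM, EGFR 5955 to 9846 CPM, group means), and progesterone receptor (PGR) reads numbered 0 or 1 per library. These came from a list of 10 markers of the line, whose changes under EPZ5676 are given below with those of other cell types. ESR1 and ERBB2 were also listed as low, and their levels are not given here. CPM are counts scaled to a library size of 1e+06, here after TMM scaling.

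The upstream sequences of 3 members are shown because the binding site of MYC and MAX pairs, the E-box CACGTG, can be looked for in them: MYCL had the largest rise, MXD4 was a repressor that fell in both populations, and MNT was a repressor without a call. Each is the 250 bases before the start of the gene in RefSeq (build GRCh38.p14), read 5′ to 3′ on the strand of the gene. Capitals mark CACGTG, which reads the same on both strands, and the GC box GGGCGG or its complement CCGCCC.
MYCL (chr1:39901918-39902167, minus strand): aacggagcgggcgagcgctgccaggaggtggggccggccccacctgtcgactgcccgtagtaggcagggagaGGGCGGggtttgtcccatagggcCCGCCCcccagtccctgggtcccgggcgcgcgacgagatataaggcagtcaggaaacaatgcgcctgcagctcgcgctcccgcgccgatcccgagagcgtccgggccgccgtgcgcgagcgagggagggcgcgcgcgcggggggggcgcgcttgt
MXD4 (chr4:2262110-2262359, minus strand): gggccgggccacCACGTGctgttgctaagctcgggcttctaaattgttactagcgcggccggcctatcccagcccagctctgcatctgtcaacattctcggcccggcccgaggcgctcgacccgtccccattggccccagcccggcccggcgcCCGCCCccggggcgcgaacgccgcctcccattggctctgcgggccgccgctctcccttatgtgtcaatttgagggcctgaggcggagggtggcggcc
MNT (chr17:2401061-2401310, minus strand): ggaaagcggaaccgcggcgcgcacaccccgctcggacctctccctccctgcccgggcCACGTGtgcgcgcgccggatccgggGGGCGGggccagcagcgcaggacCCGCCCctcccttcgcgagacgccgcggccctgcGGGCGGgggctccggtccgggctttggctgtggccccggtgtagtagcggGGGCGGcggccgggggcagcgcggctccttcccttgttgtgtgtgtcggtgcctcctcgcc
MXD4 held 1 CACGTG beginning 238 bases before its start, MNT held 1 beginning 193 bases before its start, and the MYCL window held none. GC boxes numbered 2 in MYCL, 1 in MXD4 and 4 in MNT. Of 35116 RefSeq windows of 250 bases, 6.34% held CACGTG and 42.6% held a GC box on either strand. Windows were matched for 9 members, some with several starts, but not for MYC itself, which was not searched. Of their 14 windows 2 held CACGTG, and these are the MXD4 and MNT windows shown. These matches describe letters and are not measured binding sites.

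EPZ5676 was compared with DMSO in each population to ask how DOT1L inhibition moved the network. In ALDH1+ cells 2 members rose (MYCL, MAX) and 4 fell (MYC, MXD3, MXD4, MXI1). In ALDH1- cells 2 rose (MYCL, MAX) and 4 fell (MYC, MXD1, MXD4, MGA). The 6 of 10 members called in ALDH1+ stand beside 31.5% of all genes tested (17.8% higher, 13.7% lower), and the 6 of 10 in ALDH1- beside 22.6% (13.6% higher, 9.04% lower). A call is an adjusted p below 0.05 in edgeR's quasi-likelihood test, with Benjamini-Hochberg adjustment over all 16327 genes. These calls come from a fit that leaves out the replicate numbers. With a term for each replicate number, 7 members were called in ALDH1+ (2 higher, 5 lower), among 6820 genes. In ALDH1- that fit called 8 (2 higher, 6 lower), among 5260 genes. There MXD1, MXD3, MXD4 and MXI1 were called lower in both populations. Libraries of the 2 treatments did not overlap for 5 members in ALDH1+ and 6 in ALDH1-, against 41.4% and 39.1% of all genes. The median log2 fold change of the members was -0.24 in ALDH1+ and -0.26 in ALDH1-, beside -0.01 and -0.02 over all genes.

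**Figure D1:**
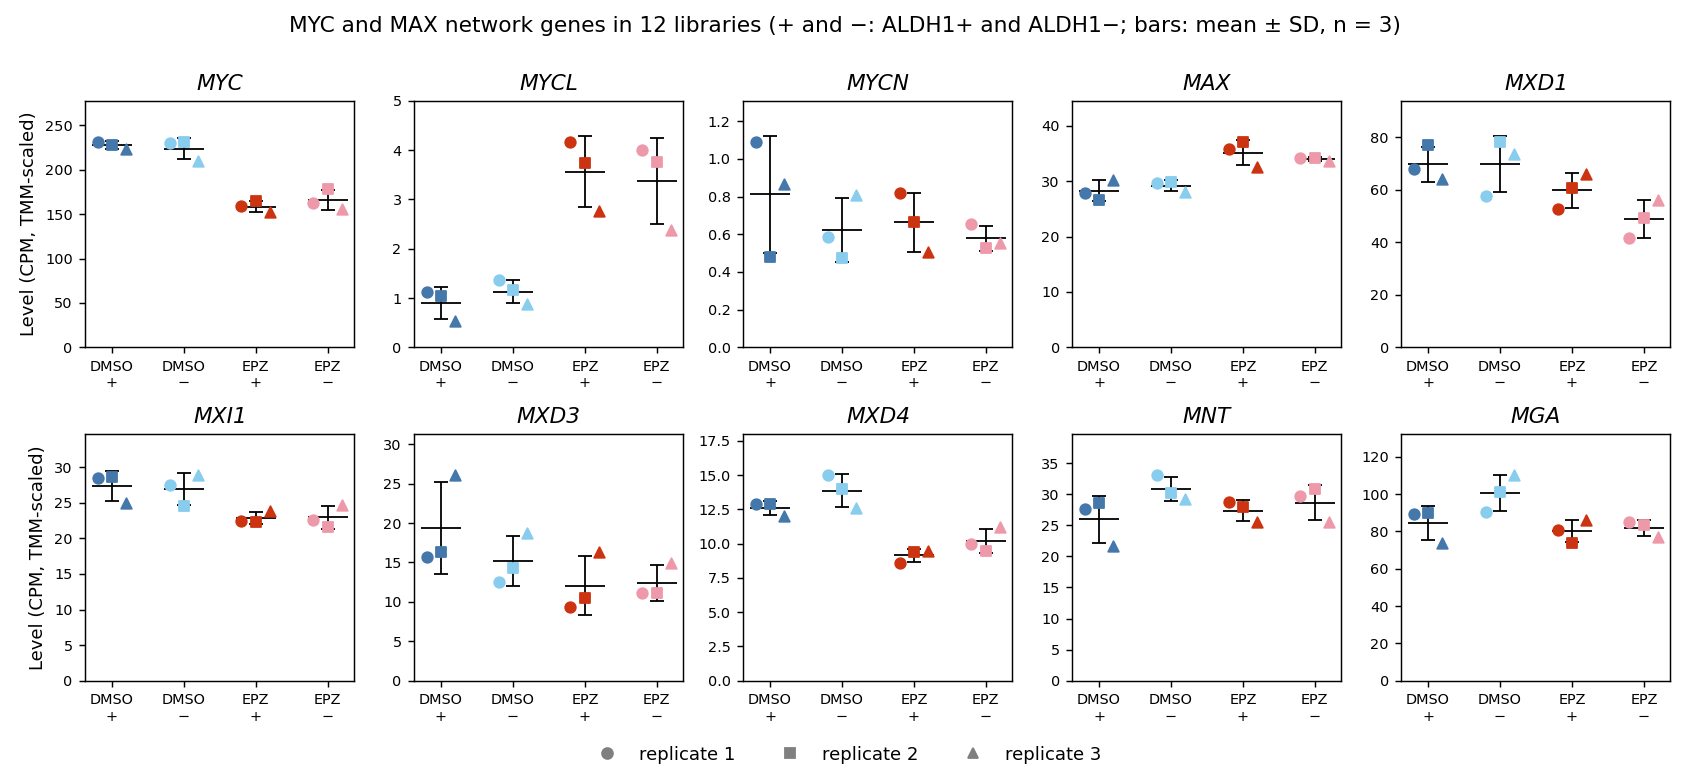
Level of each network gene (CPM, axis from 0) in the 12 libraries, by group; points are libraries, marked by replicate number, and bars are the mean ± SD of 3. MYC lies at 210 to 232 CPM in DMSO and at 152 to 178 CPM in EPZ5676, while MYCL lies at 0.531 to 1.36 CPM in DMSO and at 2.38 to 4.17 CPM in EPZ5676.

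MYC (ENSG00000136997), the broadly expressed activator of the network, was the member with the highest level per length. It stood at 232, 228 and 223 CPM in DMSO ALDH1+ replicates 1, 2 and 3 and at 159, 164 and 152 CPM in EPZ5676 ALDH1+. In DMSO ALDH1- it stood at 230, 231 and 210 CPM, and in EPZ5676 ALDH1- at 163, 178 and 156 CPM. Every EPZ5676 library lay below every DMSO library, and replicate 3 was the lowest library of each of the 4 groups. MYC fell by 30.3% in ALDH1+ (log2 fold change -0.52, SE 0.07, adjusted p = 3.36e-05 by edgeR) and by 25.9% in ALDH1- (-0.43, SE 0.07, adjusted p = 0.00025 by edgeR). Within replicate numbers MYC was lower in 6 of 6 pairs, by differences of -0.55 to -0.38 in log2 CPM. In ALDH1+ 21.8% of all genes had a larger absolute change than MYC. In bulk RNA, fewer cells with a transcript and less of it per cell cannot be told apart.

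MYCL (L-MYC), a paralog first known from small cell lung cancer, moved the other way. Its counts were 31, 26 and 30 in DMSO ALDH1+ and 117, 299 and 82 in EPZ5676 ALDH1+, or 1.13, 1.04 and 0.531 CPM against 4.17, 3.75 and 2.76 CPM. In ALDH1- the counts were 37, 34 and 23 in DMSO and 98, 107 and 60 in EPZ5676, or 1.36, 1.16 and 0.883 CPM against 3.997, 3.75 and 2.38 CPM. The treatments did not overlap in either population, and replicate 3 was the lowest library of each group. MYCL rose 4.25-fold in ALDH1+ (log2 fold change 2.09, SE 0.28, adjusted p = 5.53e-05 by edgeR) and 2.97-fold in ALDH1- (1.57, SE 0.28, adjusted p = 0.000916 by edgeR). It was higher in 6 of 6 numbered pairs, by 1.37 to 2.26. In ALDH1+ 2.41% of all genes, and in ALDH1- 3.56%, had a larger absolute change.

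MYCN (N-MYC), the paralog of neural tumors, had 12 to 53 counts per library. It stood at 1.09, 0.478 and 0.867 CPM in DMSO ALDH1+ and at 0.820, 0.664 and 0.506 CPM in EPZ5676 ALDH1+. In ALDH1- it was 0.586, 0.476 and 0.806 CPM in DMSO and 0.653, 0.526 and 0.555 CPM in EPZ5676, so all groups overlapped. The log2 fold changes were -0.32 (SE 0.28) and -0.10 (SE 0.34), with adjusted p of 0.43 and 0.868 by edgeR; standard errors of this size leave changes of the size seen for MYC undetectable at this depth.

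The 3 MYC paralogs were set side by side per length, as CPM per kilobase of the exons of each gene in GENCODE release 29. Mean MYC levels were 75.9 ± 1.4 in DMSO ALDH1+ and 52.9 ± 2.0 in EPZ5676 ALDH1+ (SD, n = 3), against 0.177 ± 0.063 and 0.703 ± 0.14 for MYCL. MYC supplied 99.2 to 99.5% of the summed level of the paralogs in the DMSO libraries and 97.9 to 98.7% in the EPZ5676 libraries. MYCL supplied 0.14 to 0.348% and 0.891 to 1.52%. The sum of the paralogs went from 70.4 to 77.9 CPM per kilobase in DMSO to 51.4 to 60.3 in EPZ5676, so the rise of MYCL was small beside the fall of MYC on this scale.

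MAX, the shared partner of the network, stood at 27.9, 26.6 and 30.3 CPM in DMSO ALDH1+ and at 35.8, 37.2 and 32.7 CPM in EPZ5676 ALDH1+. In ALDH1- it stood at 29.7, 29.9 and 28.1 CPM in DMSO and at 34.3, 34.2 and 33.7 CPM in EPZ5676. All EPZ5676 libraries were above all DMSO libraries. MAX rose by 24.4% in ALDH1+ (log2 fold change 0.31, SE 0.08, adjusted p = 0.00534 by edgeR) and by 16.6% in ALDH1- (0.22, SE 0.08, adjusted p = 0.0498 by edgeR). The second call lies at the threshold. It was lost when any 1 library of the 2 ALDH1- groups, DMSO ALDH1+ replicate 1 or 2, or EPZ5676 ALDH1+ replicate 1 was left out, with adjusted p from 0.0566 to 0.157 by edgeR. It was also lost without the filter (0.186), without all 4 libraries numbered 3 (0.0881) and by limma-voom (adjusted p = 0.0583), and kept with the replicate block (0.028 by edgeR). The distance between MYC and MAX narrowed: log2 MYC minus log2 MAX was 2.88 to 3.10 in the DMSO libraries and 2.14 to 2.38 in the EPZ5676 libraries.

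**Figure D2:**
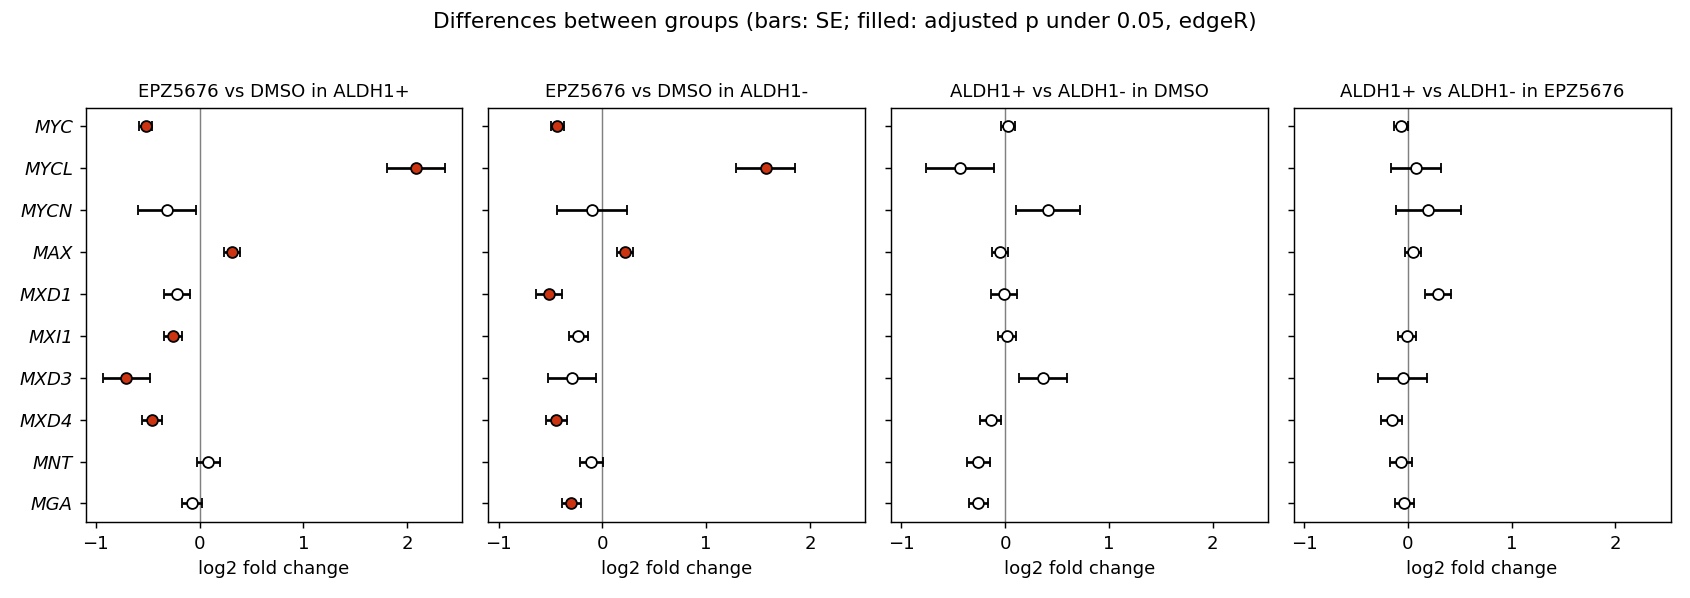
Log2 fold changes of the 10 network genes in the 4 comparisons between groups; bars are standard errors and filled points passed an adjusted p of 0.05 in edgeR. MYCL stands to the right at 2.09 and 1.57 in both treatment comparisons, and the comparisons of ALDH1+ with ALDH1- hold 0 filled points.

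Among the repressors, MXD4 (MAD4) fell in both populations. It stood at 12.9, 12.9 and 12.04 CPM in DMSO ALDH1+ and at 8.60, 9.39 and 9.44 CPM in EPZ5676 ALDH1+. The ALDH1- libraries held MXD4 at 14.99, 14.01 and 12.6 CPM in DMSO and at 9.95, 9.44 and 11.2 CPM in EPZ5676. No EPZ5676 library reached a DMSO library. The log2 fold changes were -0.46 (SE 0.10, adjusted p = 0.00284 by edgeR) and -0.45 (SE 0.10, adjusted p = 0.00536 by edgeR), close in size to those of MYC, and 6 of 6 numbered pairs were lower.

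MXI1 (MXD2), an antagonist also induced by hypoxia, stood at 28.5, 28.6 and 24.96 CPM in DMSO ALDH1+ and at 22.4, 22.3 and 23.8 CPM in EPZ5676 ALDH1+. The ALDH1- libraries held MXI1 at 27.5, 24.5 and 28.9 CPM in DMSO and at 22.6, 21.6 and 24.7 CPM in EPZ5676. The groups were apart in ALDH1+ and overlapped in ALDH1-. MXI1 fell in ALDH1+ (log2 fold change -0.26, SE 0.09, adjusted p = 0.037 by edgeR), and its value in ALDH1- was -0.23 (SE 0.09, adjusted p = 0.079 by edgeR). In the blocked fit, which has a term for each replicate number, the second passed (adjusted p = 0.0435 by edgeR). The first was lost without DMSO ALDH1+ replicate 1 or 2 or EPZ5676 ALDH1+ replicate 1 or 2 (adjusted p 0.0963 to 0.11 by edgeR), and also with total counts (0.0611), without the filter (0.0828) and in a fit of those 2 groups alone (0.0762).

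MXD1 (MAD1), the founding antagonist, which rises when many cell types differentiate, stood at 67.8, 76.9 and 64.2 CPM in DMSO ALDH1+ and at 52.8, 60.7 and 65.8 CPM in EPZ5676 ALDH1+. The ALDH1- libraries held MXD1 at 57.8, 78.3 and 73.5 CPM in DMSO and at 41.6, 49.1 and 56.0 CPM in EPZ5676. The groups overlapped in ALDH1+ and did not in ALDH1-. MXD1 fell in ALDH1- (log2 fold change -0.51, SE 0.13, adjusted p = 0.00869 by edgeR). That call was lost without DMSO replicate 2 (adjusted p = 0.0545 by edgeR) and without EPZ5676 replicate 1 (adjusted p = 0.0531 by edgeR). In ALDH1+ the value was -0.22 (SE 0.12, adjusted p = 0.205 by edgeR), which passed with the replicate block (adjusted p = 0.0446 by edgeR). The difference between both effects was 0.30 (SE 0.18, adjusted p = 0.979 by edgeR), so the effects were not shown to differ. MXD1 overlaps SNRNP27 on its own strand in GENCODE release 29, so some reads may be shared; SNRNP27, named for this overlap, had log2 fold changes of -0.14 in ALDH1+ (adjusted p = 0.298 by edgeR) and 0.06 in ALDH1- (0.708).

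MXD3 (MAD3), the antagonist known from S phase of dividing cells, stood at 15.7, 16.3 and 26.1 CPM in DMSO ALDH1+ and at 9.31, 10.5 and 16.3 CPM in EPZ5676 ALDH1+. In ALDH1- it stood at 12.5, 14.3 and 18.7 CPM in DMSO and at 11.1, 11.1 and 14.98 CPM in EPZ5676. Replicate 3 was the highest library in all 4 groups, and EPZ5676 replicate 3 reached into the DMSO range in both populations. MXD3 fell in ALDH1+ (log2 fold change -0.71, SE 0.23, adjusted p = 0.0276 by edgeR), and its value in ALDH1- was -0.29 (SE 0.23, adjusted p = 0.417 by edgeR). Within replicate numbers the differences were narrow, -0.75 to -0.63 in ALDH1+ and -0.36 to -0.18 in ALDH1-, and in the blocked fit the ALDH1- value passed (adjusted p = 0.0199 by edgeR). The ALDH1+ call was lost without DMSO replicate 3 (log2 fold change -0.42, adjusted p = 0.192 by edgeR) and without EPZ5676 replicate 1 or 2 (adjusted p 0.106 and 0.108 by edgeR). MXD3 overlaps RAB24 on its own strand in GENCODE release 29, and RAB24 (named for this overlap, after its values were seen) had log2 fold changes of -0.47 in ALDH1+ (adjusted p = 0.0329 by edgeR) and -0.27 in ALDH1- (0.293). The handling of shared reads is not stated in the labels. Overlaps on the opposite strand include PRELID1 for MXD3, FNTB for MAX and AL033527.2 for MYCL, named for these overlaps. PRELID1 (mean log2 CPM 7.96) had log2 fold changes of -0.21 and -0.08 (adjusted p = 0.096 and 0.571 by edgeR). FNTB had 0.01 and 0.17 (adjusted p = 0.962 and 0.471 by edgeR). Whether reads were shared was not tested.

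**Figure D3:**
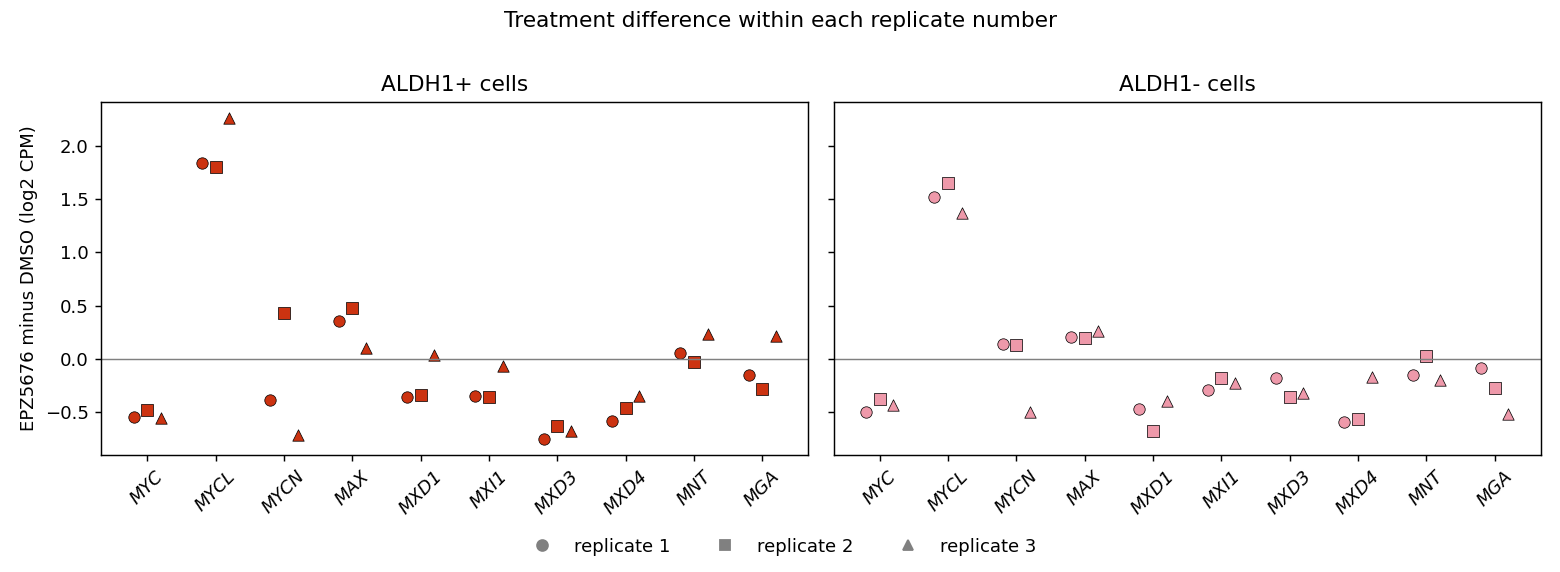
EPZ5676 minus DMSO in log2 CPM within each replicate number, for ALDH1+ (left) and ALDH1- (right); each point is 1 pair of libraries. MYC, MXD3, MXD4 and MXI1 lie below 0 in 6 of 6 pairs, MYCL and MAX above 0 in 6 of 6, and MNT in 3 of 6.

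MNT, a repressor found in most cell types, had no call under treatment. It stood at 27.6, 28.5 and 21.7 CPM in DMSO ALDH1+ and at 28.7, 28.0 and 25.4 CPM in EPZ5676 ALDH1+. In ALDH1- it stood at 33.1, 30.2 and 29.3 CPM in DMSO and at 29.7, 30.8 and 25.4 CPM in EPZ5676, and the treatments overlapped in both populations. The log2 fold changes were 0.08 (SE 0.11, adjusted p = 0.593 by edgeR) and -0.11 (SE 0.11, adjusted p = 0.539 by edgeR). MGA, the largest protein of the network, stood at 89.5, 89.8 and 73.8 CPM in DMSO ALDH1+ and at 80.6, 74.0 and 85.9 CPM in EPZ5676 ALDH1+. The ALDH1- libraries held MGA at 90.5, 101 and 110 CPM in DMSO and at 85.1, 83.6 and 76.8 CPM in EPZ5676. Only the ALDH1- libraries were apart by treatment. MGA fell in ALDH1- (log2 fold change -0.30, SE 0.09, adjusted p = 0.0327 by edgeR) and had a value of -0.07 in ALDH1+ (SE 0.09, adjusted p = 0.597 by edgeR). The difference between both effects was 0.23 (SE 0.13, adjusted p = 0.979 by edgeR). The ALDH1- call was lost without DMSO replicate 2 or 3 or any EPZ5676 replicate (adjusted p 0.0645 to 0.168 by edgeR), with total counts (0.0539), and without all 4 libraries numbered 3 (-0.18, adjusted p = 0.133).

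The balance of MYC against its antagonists was described as log2 MYC minus the mean log2 CPM of MXD1, MXD3, MXD4, MXI1 and MNT. It was 3.10 to 3.18 in DMSO ALDH1+ and 2.74 to 3.04 in EPZ5676 ALDH1+, which did not overlap. In ALDH1- it was 2.95 to 3.19 in DMSO and 2.78 to 3.13 in EPZ5676, which did. The mean antagonist level itself was lower in every EPZ5676 library (4.28 to 4.51) than in every DMSO library (4.65 to 4.76). Both sides of the balance were therefore lower, and the EPZ5676 libraries numbered 3 had the lowest balance in their groups.

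Per length in DMSO ALDH1+, MYC (75.9 CPM per kilobase) was followed by MXD1 (10.96), MAX (6.38), MXI1 (5.94), MGA (4.78), MXD3 (3.76), MNT (2.97), MXD4 (1.79), MYCN (0.312) and MYCL (0.177). Standard deviations over 3 libraries were 1.4 for MYC, 1.0 for MXD1, 0.42 for MAX, 0.45 for MXI1, 0.52 for MGA, 1.1 for MXD3 and 0.43 for MNT. Libraries of the neighbors MAX and MXI1, MGA and MXD3, MXD3 and MNT, and MYCN and MYCL overlapped in this order, and other neighbors did not. In EPZ5676 ALDH1+ MYCL (0.703) stood above MYCN (0.255), and MAX (7.95) stood closer to MXD1 (9.41).

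ALDH1+ was compared with ALDH1- within each treatment to ask whether the sorted populations differed in the network. In DMSO 0 of 10 members were called, as were 0 of 16327 genes (0% called) by edgeR. At an unadjusted p under 0.05 there were 2 members and 2904 genes, DESeq2 called 0 members and 298 genes, and limma-voom called 0 and 0. The levels of MNT and MGA were lower in every DMSO ALDH1+ library than in every DMSO ALDH1- library, 2 of 10 members beside 23.1% of all genes. The log2 fold changes were -0.26 for MNT (SE 0.11, adjusted p = 0.242 by edgeR) and -0.26 for MGA (SE 0.09, adjusted p = 0.198 by edgeR). MXD3 had 0.37 (SE 0.23, adjusted p = 0.409 by edgeR). In the blocked fit MNT (-0.26, adjusted p = 0.0374 by edgeR) and MXD3 (0.34, adjusted p = 0.0274 by edgeR) passed, among 1384 genes. MXD3 was higher in ALDH1+ in 3 of 3 numbered DMSO pairs, and MNT lower in 3 of 3.

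Under EPZ5676 0 of 10 members and 3 of 16327 genes (0.0184%) differed between the populations by edgeR. The genes were KRT13, SPRR1B and SPRR3, of squamous epithelium, named after their values were seen. At an unadjusted p under 0.05 there were 1 member, MXD1, and 1032 genes, and DESeq2 and limma-voom called 0 members. The value of MXD1 was 0.29 on the log2 scale (SE 0.13, adjusted p = 0.784 by edgeR), and it was higher in ALDH1+ in 3 of 3 numbered pairs. MXD4 alone was apart, lower in every EPZ5676 ALDH1+ library (-0.15, SE 0.10, adjusted p = 0.849 by edgeR), 1 of 10 members beside 9.57% of all genes. The nearest libraries were almost equal, at 9.437 CPM in EPZ5676 ALDH1+ replicate 3 and 9.438 CPM in EPZ5676 ALDH1- replicate 2. MYC had 0.03 (SE 0.07) in DMSO and -0.06 (SE 0.07) in EPZ5676, and MYCL -0.43 (SE 0.33) and 0.08 (SE 0.24). The difference between the treatment effects of ALDH1+ and ALDH1- was called for 0 members and 0 genes (0%) by edgeR, with 0 members and 597 genes at an unadjusted p under 0.05, and 0 by DESeq2 and limma-voom. It was -0.09 (SE 0.09) for MYC and 0.51 (SE 0.41) for MYCL. These comparisons share groups with the treatment comparisons and are not independent of them.

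Partners of the network were counted from lists of genes with known roles. Over all genes tested 17.8% rose and 13.7% fell in ALDH1+, and 13.6% rose and 9.04% fell in ALDH1-. With the replicate block 6820 and 5260 of all genes were called in either direction, against 5141 and 3695 without it. In the parallel branch, in which MLX replaces MAX, the glucose-responsive factor MLXIP (MondoA) rose in ALDH1+ (log2 fold change 0.29, SE 0.10, adjusted p = 0.0312 by edgeR), a call lost without DMSO replicate 3 or EPZ5676 replicate 1 or 2 (adjusted p 0.0938 to 0.139). The other 2 genes of this branch were not called, and none of the 3 was called in ALDH1-. Of 11 SIN3 corepressor genes 3 fell in ALDH1+ and 3 in ALDH1-, with the others not called and medians of -0.17 and -0.14; with the replicate block 6 and 4 fell. Left-out libraries moved these counts: 5 fell in ALDH1+ without DMSO replicate 1, and in ALDH1- 0 fell without DMSO replicate 3 and 1 without EPZ5676 replicate 1. SAP30, a SIN3 subunit, fell by 1.29 on the log2 scale in ALDH1+ (SE 0.19, adjusted p = 0.000148 by edgeR) and by 0.77 in ALDH1- (SE 0.20, adjusted p = 0.0109 by edgeR), where the call was lost without DMSO replicate 3 (0.0567). The histone chaperone RBBP4 fell by 0.31 in ALDH1+ (SE 0.08). Without DMSO ALDH1- replicate 3 or EPZ5676 ALDH1- replicate 1 or 2, its call in ALDH1- (-0.29) was lost. Of 11 partners of MGA in PRC1.6, 1 rose and 2 fell in ALDH1+ (1 fell without DMSO replicate 2 or 3 or EPZ5676 replicate 1), and 1 rose in ALDH1-. With the replicate block 1 rose and 3 fell, then 2 rose. The ubiquitin ligase RNF2 rose in both populations, by 0.34 (SE 0.09) and 0.35 (SE 0.09), but the ALDH1+ call was lost without EPZ5676 replicate 2 (adjusted p = 0.0533 by edgeR). The ALDH1- call was lost without EPZ5676 replicate 1 (0.0541) and without the 4 libraries numbered 3 (0.0537).

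Of 14 coactivators and chromatin partners of MYC 4 fell in ALDH1+ and 4 in ALDH1- (5 and 8 with the replicate block), with medians of -0.06 and -0.18. The falls were 2 in ALDH1+ without EPZ5676 replicate 1, and 2 in ALDH1- without DMSO replicate 3 or EPZ5676 replicate 2. Over all genes 13.7% fell and 17.8% rose in ALDH1+, and 9.04% fell and 13.6% rose in ALDH1-. SMARCB1, a SWI/SNF subunit that binds MYC, fell by 0.40 (SE 0.08, adjusted p = 0.00115 by edgeR) and 0.33 (SE 0.08, adjusted p = 0.00613 by edgeR). The ATPase RUVBL2 fell by 0.33 in ALDH1+ (SE 0.07), and its ALDH1- value (-0.19, adjusted p = 0.0779 by edgeR) passed with the replicate block (0.0208). In ALDH1- the acetyltransferase KAT2A fell by 0.25 (SE 0.06; adjusted p = 0.0505 by edgeR without the filter), and its ALDH1+ value (-0.15, adjusted p = 0.0705) passed with the replicate block (0.0432). Of 18 genes that control the stability of MYC protein, 1 rose and 6 fell in ALDH1+, and 1 fell in ALDH1- (4 and 7, then 2 and 3, with the replicate block). The rises in ALDH1+ were 3 without DMSO replicate 1 and 2 without EPZ5676 replicate 3. GSK3B, a kinase that marks MYC for degradation, rose by 0.39 in ALDH1+ (SE 0.07, adjusted p = 0.00115 by edgeR), and its ALDH1- value (0.19, adjusted p = 0.0874) passed with the replicate block (0.0321). The mitotic kinases AURKA and PLK1, which can stabilise MYC proteins, fell by 0.39 (SE 0.10) and 0.41 (SE 0.10) in ALDH1+. USP28, a deubiquitinase of MYC, fell by 0.36 in ALDH1- (SE 0.08, adjusted p = 0.00456 by edgeR). It also fell by 0.31 in ALDH1+ (adjusted p = 0.00824 by edgeR). Protein was not measured.

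**Figure D4:**
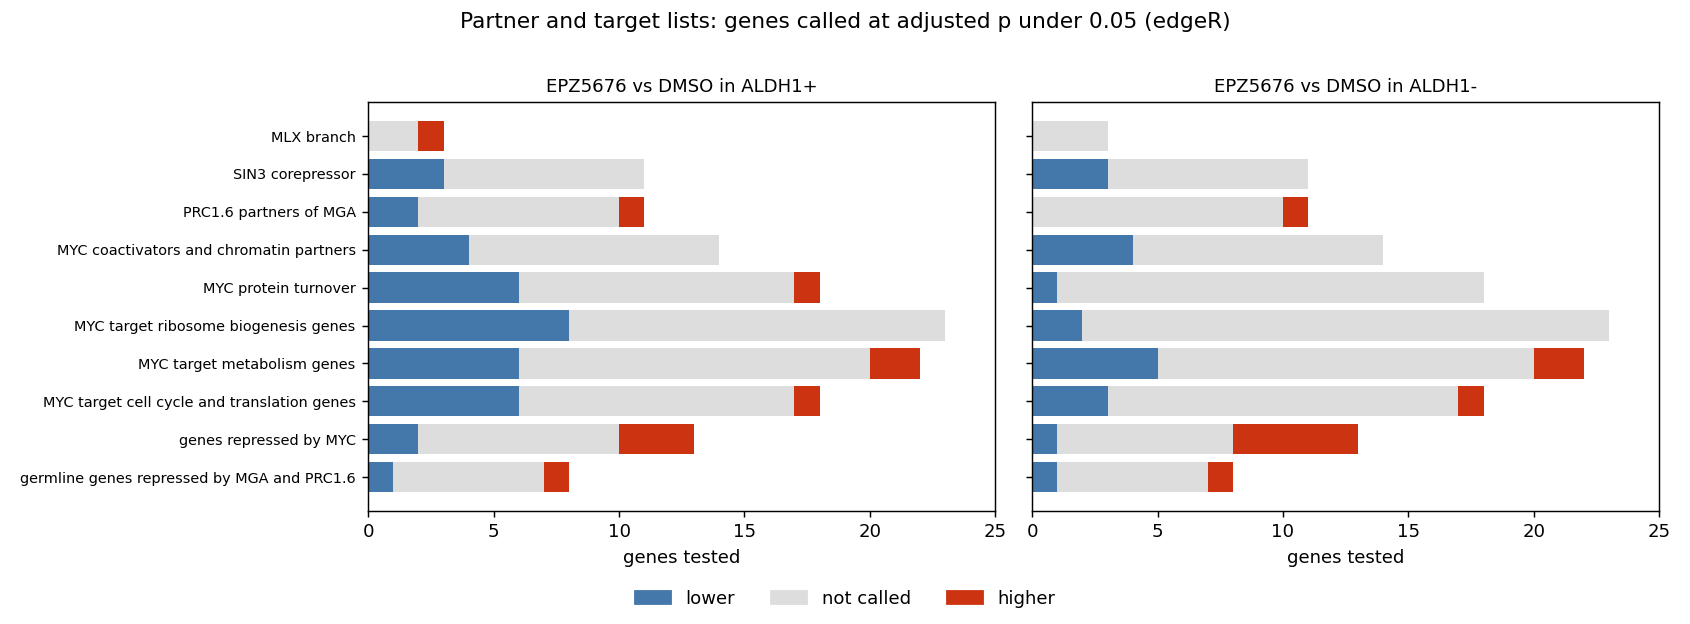
Genes tested in each list of partners and targets, by call under EPZ5676 in ALDH1+ (left) and ALDH1- (right); the horizontal axis counts genes, coloured by lower, not called and higher. Among the 3 lists of genes activated by MYC, 20 of 63 genes were lower in ALDH1+ and 10 of 63 in ALDH1-.

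Genes known to be activated by MYC were read from 3 lists with 63 tested genes. In ALDH1+ 20 fell and 3 rose (31.7% and 4.76%, beside 13.7% and 17.8% of all genes), and in ALDH1- 10 fell and 3 rose (15.9% and 4.76%, beside 9.04% and 13.6%). With the replicate block 24 fell and 4 rose in ALDH1+, and 16 fell and 4 rose in ALDH1-. By list, in ALDH1+ and ALDH1-, the blocked falls were 9 and 4 for ribosome biogenesis, 8 and 8 for metabolism, and 7 and 4 for cell cycle and translation; the rises were 3 and 3 for metabolism and 1 and 1 for cell cycle and translation. Of 23 ribosome biogenesis genes 8 fell in ALDH1+ and 2 in ALDH1-, with medians of -0.06 and -0.09. The nucleolar proteins NOP56 (-0.29, SE 0.08), NPM1 (-0.26, SE 0.08) and NCL (-0.23, SE 0.06) fell in ALDH1+, and UBTF, a factor of ribosomal RNA transcription, fell in ALDH1- (-0.25, SE 0.06). The count in ALDH1+ was 3 without all 4 libraries numbered 3, where NOP56 had adjusted p = 0.0574 by edgeR. NPM1 was lost without DMSO replicate 3 or EPZ5676 replicate 1 (0.0713 and 0.0737), and NCL without EPZ5676 replicate 2 (0.0551) or in a fit of the 2 groups alone (0.0597). The ALDH1- value of NCL (-0.17, adjusted p = 0.0674 by edgeR) passed with the replicate block (0.0265). UBTF was also called lower in ALDH1+ (-0.16, adjusted p = 0.0425 by edgeR), a call lost in 12 of 21 alternative fits. Of 22 metabolism genes 6 fell and 2 rose in ALDH1+, and 5 fell and 2 rose in ALDH1-. The glycolytic enzyme ENO1 fell by 0.30 (SE 0.06) and 0.29 (SE 0.06), and the purine enzyme PAICS by 0.35 in ALDH1+ (SE 0.08). PAICS was also called lower in ALDH1- (-0.25, adjusted p = 0.0315 by edgeR), a call lost in 5 of 21 alternative fits. The amino acid transporter SLC7A5 rose by 0.81 in ALDH1+ (SE 0.15, adjusted p = 0.000728 by edgeR).

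Of 18 tested MYC targets in cell cycle and translation 6 fell and 1 rose in ALDH1+, and 3 fell and 1 rose in ALDH1-. The cyclin CCNA2 fell by 0.51 in ALDH1+ (SE 0.12, adjusted p = 0.00518 by edgeR) and the chaperonin HSPD1 by 0.36 (SE 0.07). HSPD1 was also called lower in ALDH1- (-0.25, adjusted p = 0.0264 by edgeR), a call lost in 5 of 21 alternative fits. Cyclin E, CCNE1, rose by 0.50 in ALDH1+ (SE 0.10, adjusted p = 0.00115 by edgeR) and by 0.41 in ALDH1- (SE 0.10), the latter with adjusted p = 0.057 by edgeR without the 4 libraries numbered 3. Single libraries moved these counts. In ALDH1+ the 8 ribosome biogenesis genes became 3 without DMSO replicate 3 or EPZ5676 replicate 2, 4 without EPZ5676 replicate 1, and 5 without EPZ5676 ALDH1+ replicate 3 or DMSO ALDH1- replicate 2. The 6 lower metabolism genes became 3 without EPZ5676 replicate 1, and the 6 of cell cycle and translation became 2 without DMSO replicate 3 or EPZ5676 replicate 1. In ALDH1- the 2 ribosome biogenesis genes became 1 without any library of the ALDH1- groups other than EPZ5676 replicate 3, or without DMSO ALDH1+ replicate 2 or EPZ5676 ALDH1+ replicate 1 or 2. The 5 lower metabolism genes became 2 without DMSO replicate 3 or EPZ5676 replicate 1 or 2, and 3 without DMSO replicate 2, while the 2 higher became 1 without either library numbered 3. The 3 of cell cycle and translation became 0 without DMSO replicate 2 or 3 or EPZ5676 replicate 1 or 2.

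Of 13 tested genes known to be repressed by MYC, 3 rose and 2 fell in ALDH1+ (5 and 2 with the replicate block), and 5 rose and 1 fell in ALDH1- (7 and 3). Without the libraries numbered 3 the rises were 6 and 6; they were 5 in ALDH1+ without EPZ5676 replicate 3, and 3 in ALDH1- without DMSO replicate 3 or EPZ5676 replicate 1 or 2. The falls were 1 in ALDH1+ without DMSO replicate 3 or EPZ5676 replicate 1 or 2, and in ALDH1- 0 without DMSO replicate 2 or 3 or EPZ5676 replicate 1 or 2, and 2 without EPZ5676 replicate 3. The medians were 0.15 and 0.31. Beside these counts and those of the germline genes below, 17.8% of all genes rose and 13.7% fell in ALDH1+. In ALDH1- 13.6% of all genes rose and 9.04% fell. The cell cycle inhibitor CDKN1A (p21) rose by 1.12 (SE 0.11, adjusted p = 4.54e-06 by edgeR) and 0.94 (SE 0.12, adjusted p = 3.76e-05 by edgeR). The inhibitor CDKN1B (p27) fell by 0.52 in ALDH1+ (SE 0.10, adjusted p = 0.00103 by edgeR). It was also called lower in ALDH1- (-0.36, adjusted p = 0.0184 by edgeR), a call lost in 4 of 21 alternative fits. KLF4, a differentiation factor, rose by 1.09 in ALDH1+ (SE 0.25), and the inhibitor CDKN1C (p57) by 1.18 and NDRG2 by 1.146 in ALDH1- (SE 0.26 and 0.27). KLF4 was also called higher in ALDH1- (0.83, adjusted p = 0.025 by edgeR), a call lost in 5 of 21 alternative fits. The ALDH1+ value of CDKN1C (0.60, adjusted p = 0.0705 by edgeR) passed with the replicate block (0.0367). Of 8 tested germline genes known to be silenced by MGA and PRC1.6, 1 rose and 1 fell in each population. The falls, HORMAD1 (-0.55) in ALDH1+ and TDRKH (-0.34) in ALDH1-, depended on single libraries. HORMAD1 was lost without EPZ5676 ALDH1+ replicate 2 (adjusted p = 0.0557 by edgeR). TDRKH was lost without DMSO ALDH1- replicate 3 (0.0585), without EPZ5676 ALDH1- replicate 1 (0.0597) and without all 4 libraries numbered 3 (0.109). The meiotic gene MEIOC rose by 1.45 (SE 0.15, adjusted p = 4.88e-06 by edgeR) and 1.36 (SE 0.15, adjusted p = 1.21e-05 by edgeR). These lists hold genes that other factors also control, and membership was not tested in these cells.

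Markers of other cell types were counted beside these changes. Of 5 tested markers 4 rose and 1 fell in ALDH1+ (2 rose without DMSO replicate 3), and 3 rose in ALDH1-. The shares over all genes were 17.8% higher and 13.7% lower in ALDH1+, and 13.6% higher and 9.04% lower in ALDH1-. The summed level of 13 markers was 17.6 to 25.2 CPM in the DMSO libraries and 30.1 to 37.6 CPM in the EPZ5676 libraries, mostly COL1A1 and CSF1R. The T cell marker CD3E had 0 or 1 count per library and the erythroid gene HBB had 0. Of 9 tested markers of the line itself, 1 rose and 5 fell in ALDH1+, and 2 fell in ALDH1-. With the replicate block 1 rose and 6 fell in ALDH1+, and 1 rose and 3 fell in ALDH1-. The 5 falls in ALDH1+ became 3 without DMSO replicate 3 or EPZ5676 replicate 1. Falls included CDH1 (-0.55 and -0.67), ERBB2 (-0.63 and -0.79) and, in ALDH1+, KRT19 (-0.31), while EGFR rose there by 0.63. The ALDH1- values of KRT19 (-0.20) and EGFR (0.33) passed with the replicate block (adjusted p = 0.0278 and 0.00939 by edgeR). The part of both marker lists in the changes of the network was not tested.

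The genes whose pattern over the 12 libraries lay closest to that of MYC were PFKL, PCYT2, MAPK13, GRAMD4 and FLOT2, by the root mean square difference of centered log2 CPM among 12123 genes. The differences were 0.060, 0.064, 0.064, 0.071 and 0.073, beside a spread of 0.25 for MYC itself. PFKL had log2 fold changes of -0.51 in ALDH1+ and -0.47 in ALDH1-. Closest to MYCL, the other member with the largest treatment effect, were, among those reported here, FYN, ZNF462, RGS20 and ITGA2, at 0.16, 0.18, 0.19 and 0.19 beside a spread of 0.94. FYN, a SRC family kinase, had log2 fold changes of 1.998 in ALDH1+ and 1.497 in ALDH1-. The libraries of each treatment share these patterns, so likeness here is mostly likeness in the treatment difference, and no p is given.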

How the data were processed

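For 12 bulk RNA libraries, made with a directional kit per the labels' protocols, the authors deposited raw whole-number counts of reads by gene, in a single table. Trim Galore, STAR and hg19 appear in the submitters' processing notes; no source used here states how reads were assigned to genes, with which annotation or strand setting. Identifiers were matched without version to symbols. Exon lengths came from GENCODE release 29 (GRCh38), another build, so levels per length are approximate.

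Counts were fitted in edgeR 4.0.16 (R 4.3.3) with filterByExpr, TMM factors (0.975 to 1.02) and 1 term per group over all 12 libraries, and tested by quasi-likelihood with Benjamini-Hochberg adjustment over 16327 genes; the standard error is the log2 fold change over the root of F. Log2 CPM used a prior count of 2. The fit was tested on data simulated without a replicate effect. It called 48 of 100 genes changed by 0.5 on the log2 scale and 78 of 100 changed by 1, with 8 false calls. Among genes in the upper part by level it called 37 of 42 and 43 of 43.

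Replicate numbers recur in all groups. Deviations from group means correlated at 0.17 to 0.65 in all 18 same-numbered pairs from different groups (12354 genes). In the 36 differently numbered pairs from different groups they correlated at -0.66 to 0.22, so the ranges overlapped at their ends. On these ranges the numbers were taken to pair the libraries. The blocked fit is given beside the members, list counts and named genes whose calls it changes. Alternatives were other scaling and filters, DESeq2 1.42.0, limma-voom (limma 3.58.1), only the groups compared, the block, and leaving out each library. Leaving out all 4 libraries numbered 3 was chosen after seeing the data. Every member was named in every comparison, and from each other list up to 4 called genes with the smallest p were allowed; for MYC and for the other member with the largest treatment effect, the 5 genes closest in pattern were added. Some genes that this rule names are not reported here. The members and lists were chosen with earlier results of these data known. Of 191 list entries, 3 had no row.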

Additional observations from a re-analysis of the deposited data

How the results depend on the processing

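Of 1032 recomputed member values, 957 kept both direction and call, 31 lost the call, 6 gained it, none that was called changed direction, and 38 that were never called changed sign. MYC, MYCL, MAX and MXD4 in ALDH1+, and MYC, MYCL and MXD4 in ALDH1-, passed under every alternative run. The log2 fold change of MYC ranged from -0.55 to -0.49 in ALDH1+ and -0.49 to -0.39 in ALDH1-, and that of MYCL from 1.72 to 2.31 and 1.43 to 1.77.

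Comparing ALDH1+ with ALDH1- in DMSO, 0 genes became 948 without a filter, 298 with DESeq2 and 1384 with the replicate block, and 0 members became 1 and 2 without a filter and with the block. Under EPZ5676, 3 genes became 235 without a filter, 31 with DESeq2, 5 in a fit of only the groups compared, 75 with the replicate block and 61 without the 4 libraries numbered 3. The interaction went from 0 to 37 genes without a filter. With single libraries left out, genes called ranged over 3793 to 5450 and 2604 to 3967 for treatment in ALDH1+ and ALDH1-, 0 to 1 and 0 to 21 between populations in DMSO and EPZ5676, and 0 to 0 for the interaction; members called ranged over 4 to 6, 3 to 6, 0 to 0, 0 to 0 and 0 to 0. With the replicate block 7 and 8 members were called under treatment, and the calls it added are those given beside MXD1, MXD3, MXI1 and MNT. The interaction needs all groups, so it was not run with only the groups compared. Where not stated, the cause was not tested. Depth limits MYCN, at 12 to 53 counts, most. Replicates were 3 per group, and p-values set differences between groups against the spread between these libraries.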
